A study of Mus musculus with 8 samples.

Results

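The genes of the glutathione, thioredoxin and antioxidant enzyme systems were examined in hearts of aged mice with and without a western diet. They were chosen by symbol among protein-coding genes. Taken were the superoxide dismutases, glutathione peroxidases, peroxiredoxins, thioredoxins, thioredoxin reductases, glutaredoxins and glutathione transferases, microsomal ones included. Cat, Nqo1, Gclc, Gclm, Gsr, Gss, Srxn1, Nfe2l2 and Keap1 were added. This gave 61 genes of the 30153 listed. Of these 61, 52 reached at least 1 TPM (transcripts per 1000000 transcripts) in at least 4 of the 8 libraries and were tested, while 9 did not. The hearts came from aged C57/BL6 mice with a transgene, the human gene for the angiotensin II type 1 receptor in its haplotype II form, which the series title describes as overexpressed. The 4 control libraries are labelled as haplotype II and aged, and the other 4 are labelled in the same way with a western diet, so the transgene haplotype, the strain and the aged state are shared by all 8. The sources used here do not give the promoter of the transgene, the number of founder lines, the sex, the age in months or the length of feeding. Whether every library stands for 1 animal is also not stated, and p-values therefore reflect only how far these 8 samples spread, which may be technical.

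Cells remove superoxide and peroxides in relays. Superoxide dismutases turn superoxide into hydrogen peroxide, which catalase, glutathione peroxidases and peroxiredoxins reduce to water. Glutathione is rebuilt by glutathione reductase and peroxiredoxins by thioredoxin and its reductase, all at the expense of NADPH, and glutathione transferases join glutathione to reactive lipids and foreign compounds. The transcription factor NRF2 (gene Nfe2l2), held in check by KEAP1, drives many of these genes through antioxidant response elements. Heart muscle is rich in mitochondria and depends on the mitochondrial members of these families.

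Several glutathione peroxidases and all 3 thioredoxin reductases are selenium-dependent, while the other peroxidases use cysteine. In the selenium-dependent enzymes a UGA codon inside the reading frame is read as selenocysteine. Of the 20 coding sequences of peroxidases, peroxiredoxins, thioredoxins and reductases searched in GENCODE M21 (mouse build GRCm38), 7 held exactly 1 in-frame TGA before the stop codon, each annotated as selenocysteine. The stretches around it are shown for the 6 of these genes that were tested, with the TGA in capitals.
Gpx1: gtcgcgtctctcTGAggcaccacgatc
Gpx3: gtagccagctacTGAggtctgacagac
Gpx4: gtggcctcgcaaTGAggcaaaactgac
Txnrd1: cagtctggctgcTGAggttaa
Txnrd2: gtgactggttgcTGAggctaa
Txnrd3: cagaaaggctgcTGAggctag
It was codon 47 of 202 in Gpx1 (chromosome 9, 108339451 to 108339453, exon 1), codon 73 of 227 in Gpx3 (chromosome 11, 54907256 to 54907258, exon 2) and codon 129 of 254 in Gpx4 (chromosome 10, 80054737 to 80054739, exon 3), counted in the longest complete coding sequence. In the reductases it was the third codon from the end, stop codon included: codon 612 of 614 in Txnrd1 (chromosome 10, 82896037 to 82896039, exon 15), codon 526 of 528 in Txnrd2 (chromosome 16, 18477772 to 18477774, exon 17) and codon 614 of 616 in Txnrd3 (chromosome 6, 89674789 to 89674791, exon 16). Gpx2 was the seventh gene. No in-frame TGA was found in Gpx5, Gpx6, Gpx7, Gpx8, the 7 peroxiredoxin genes, Txn1 or Txn2.

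Promoter windows of 250 bases before to 50 after the transcription start (RefSeq, GRCm38.p6) were searched on both strands for TGACNNNGC, the core of the antioxidant response element. Such a run can overlap the AP-1 motif TGANTCA, as it does in Prdx1. Of the 54 members with a window 10 held it, or 18.5%, against 13.99% of all 27025 genes in the table. By window the shares were 13.9% of 72 and 12.4% of 32851. Of the 8 genes with an unadjusted p under 0.05 below, Srxn1 (higher with western diet) and Mgst1 (lower) held the motif, Gsta2, Cat, Gstt1 and Gstm6 had windows without these letters, and Sod3 and Gstt2 had no window in the table. The sites are shown to let them be compared, with the motif in capitals, 8 flanking bases on each side, and each written on the strand that reads TGAC.
Sod1: cctgagtcTGACCACGCccaccttg
Prdx1: acgggggaTGACTCAGCgctttccc
Srxn1: tctcactcTGACCTAGCtgcccact
Txnrd1: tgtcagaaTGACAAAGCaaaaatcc
Gclm: gtgagagtTGACGGTGCgcccggga
Gsta3: ctcaggcaTGACATTGCatttttct
Gstm5: ccgcccacTGACCACGCggagggcg
Gstm7: tgaagaccTGACAAAGCgaagccaa
Mgst1: ccgcctccTGACCGTGCcaagcccc
Nfe2l2: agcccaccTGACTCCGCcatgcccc
The motif lay 56 bases before the start of Sod1 (chr16:90220706-90220714, motif on the minus strand), 133 bases before the start of Prdx1 (chr4:116685466-116685474, motif on the minus strand), 28 bases after the start of Srxn1 (chr2:152105552-152105560, motif on the minus strand), 92 bases before the start of Txnrd1 (chr10:82859114-82859122, motif on the minus strand), 134 bases before the start of Gclm (chr3:122245423-122245431, motif on the minus strand). It lay 121 bases before the start of Gsta3 (chr1:21240464-21240472, motif on the plus strand), 42 bases before the start of Gstm5 (chr3:107895812-107895820, motif on the plus strand), 129 bases before the start of Gstm7 (chr3:107931735-107931743, motif on the minus strand), 56 bases before the start of Mgst1 (chr6:138140471-138140479, motif on the minus strand), 240 bases before the start of Nfe2l2 (chr2:75704895-75704903, motif on the minus strand). Txnrd1, Gstm7 and Mgst1 also had windows at other starts, without the motif. For these genes the start meant is that of the window holding it. A match is a description of these letters and not a measured binding site.

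Heart identity was plain in all 8 libraries: the 6 cardiomyocyte markers (Myh6, Tnnt2, Actc1, Ryr2, Myl2, Pln) summed to 28810 to 38870 TPM. Several libraries stood apart. Y-linked transcripts (Eif2s3y) were present in all 4 controls and in western diet replicate 4 and were at or near 0 in western diet replicates 1 to 3. Atrial transcripts (Myl7 of at least 100 TPM) marked control replicates 1 and 3 and western diet replicate 2. The 6 red cell markers, all above 0, summed to 14260 TPM in western diet replicate 1 and to 1975 to 5283 TPM in the other 7 libraries. The 6 kidney tubule markers, of which only Kap reached a mean of 1 TPM, summed to 9.09 to 79.2 TPM with western diet and to at most 0.685 TPM in controls. The 6 macrophage markers, all above a mean of 1 TPM, summed to 83.6 to 104 TPM in controls and 105 to 172 TPM with western diet, highest in replicate 1. The 6 neutrophil markers, 2 of them at a mean of 1 TPM or more, summed to 3.82 to 7.99 TPM in controls and 8.65 to 16.8 TPM with western diet. Of those 2, S100a8 was higher (limma adjusted p = 0.0319). S100a9 overlapped between groups, at 2.48 to 5.15 TPM in controls and 4.84 to 9.93 TPM with western diet. The others were not tested. Retnlg and Cxcr2 had higher means with western diet, Mpo a lower one, and Ly6g was above 0 only in western diet replicate 1. The 6 smooth muscle and pericyte markers, none at 0 throughout, summed to 161 to 179.7 TPM in controls and 155 to 162 TPM with western diet. Most of that sum was Rgs5, at a mean of 127 TPM in controls and 132 TPM with western diet. Tagln was lower (limma adjusted p = 0.0169), and Pdgfrb and Kcnj8 had groups that did not overlap, lower with western diet. Myh11 and Cnn1 had lower means with overlapping groups, and Cnn1 was not tested. Irf7, an interferon-responsive gene, was at 61.0 TPM in western diet replicate 4, 10.5 to 14.7 TPM in its other 3 libraries and 3.65 to 5.32 TPM in controls. The part of these in the results on the antioxidant genes was not tested. In such bulk RNA, fewer cells of a type and less RNA per cell cannot be told apart. The number of reads behind a value cannot be read from TPM and is unknown.

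All 61 genes together held 4042 to 4191 TPM in the controls and 3749 to 4781 TPM with western diet. The most abundant transcript was Gpx4, which repairs peroxidised membrane lipids, at a mean of 649 TPM over the 8 libraries, rank 115 among the 10969 genes tested. Next came Sod1 at 374, Prdx2 at 361, Prdx5 at 255 and Prdx1 at 233 TPM. Neighbours in this order were close. Prdx2 (367 to 387 TPM) was above Sod1 (348 to 367 TPM) in each of the 4 controls and below it in each of the 4 western diet libraries (303 to 401 against 316 to 479 TPM). Prdx5 (222 to 281 TPM) overlapped Prdx1 (204 to 258 TPM). Mgst3, Txn2, Prdx3, Prdx6, Gstm1 and Gpx3 followed at means of 186, 184, 182, 177, 171 and 159 TPM. TPM is scaled per transcript length, which is what allows levels to be compared between genes.

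**Figure D1:**
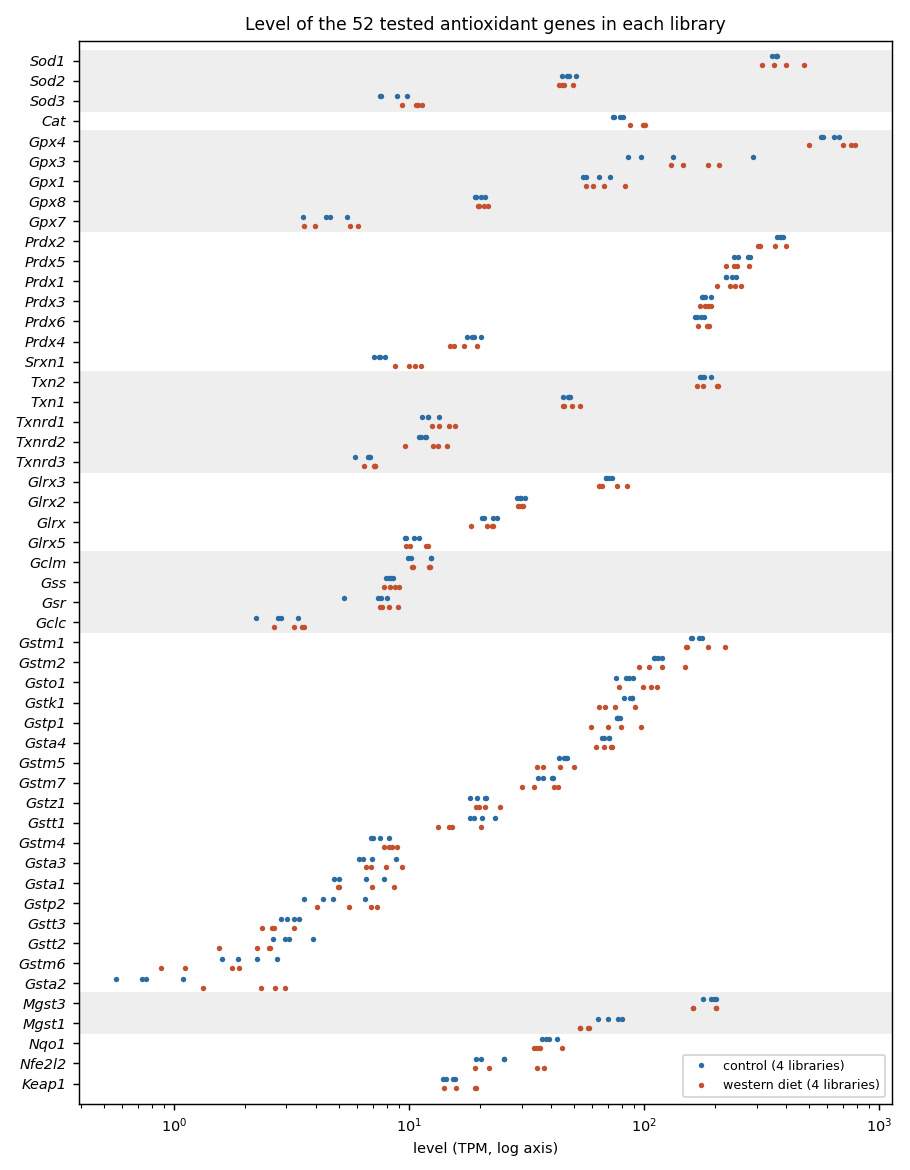
Level in TPM (log axis) of each of the 52 tested genes in each library, blue for the 4 controls and red for the 4 western diet libraries, grouped by role with alternate shading. Gpx4 lies highest at 502 to 784 TPM and Gsta2 lowest in control at 0.565 to 1.09 TPM, and most genes have overlapping groups.

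No gene of the 52 passed the test of western diet against control at a limma adjusted p of 0.05 over all genes, where 0.301% of all 10969 tested genes did (0.228% higher and 0.0729% lower with western diet). The lowest adjusted p was 0.0630, for Gsta2. Of the 52, 36 had the higher mean log2 value with western diet (69.2%), against 66.4% of all genes. At an unadjusted p under 0.05 there were 8 of 52 genes (15.4%), against 11.7% of all genes. Of these 8, Gsta2, Cat, Srxn1 and Sod3 were higher with western diet, 7.69% of the members against 9.20% of all genes, and Mgst1, Gstt1, Gstt2 and Gstm6 were lower, 7.69% against 2.51%. Groups that did not overlap were seen in 5 genes (9.62%, against 6.60% of all genes), 3 higher (background 4.85%) and 2 lower (background 1.75%). The median log2 fold change was 0.052 over the 52 and 0.061 over all genes, and 41 of the 52 lay within 0.25 of zero. The filter lets a gene pass through the group in which it is high, as Gsta2 did, so these counts describe the genes that passed and not all 61. The split of 4 higher and 4 lower was 3 and 8 after median-of-ratios scaling and 3 and 9 after quantile normalization. In those fits 14.8% and 15.3% of all genes had an unadjusted p under 0.05. With the model term for Y-linked transcripts the split was 2 higher (Gsta2 and Srxn1) and 5 lower (Gstk1, Gstm5, Gstp1, Gstt1 and Mgst1). There the share of all genes was 8.32%. The diet term of that fit compares western diet replicate 4, the only diet library with these transcripts, with the 4 controls. It rests on that 1 library, with 72.1 TPM of Kap and 61.0 TPM of Irf7. The same holds wherever this term is used below. Without western diet replicate 2, 5 genes had an unadjusted p under 0.05, and 5 without the 3 libraries with atrial transcripts. The shares of all genes were 7.79% and 5.6% in those fits.

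**Figure D2:**
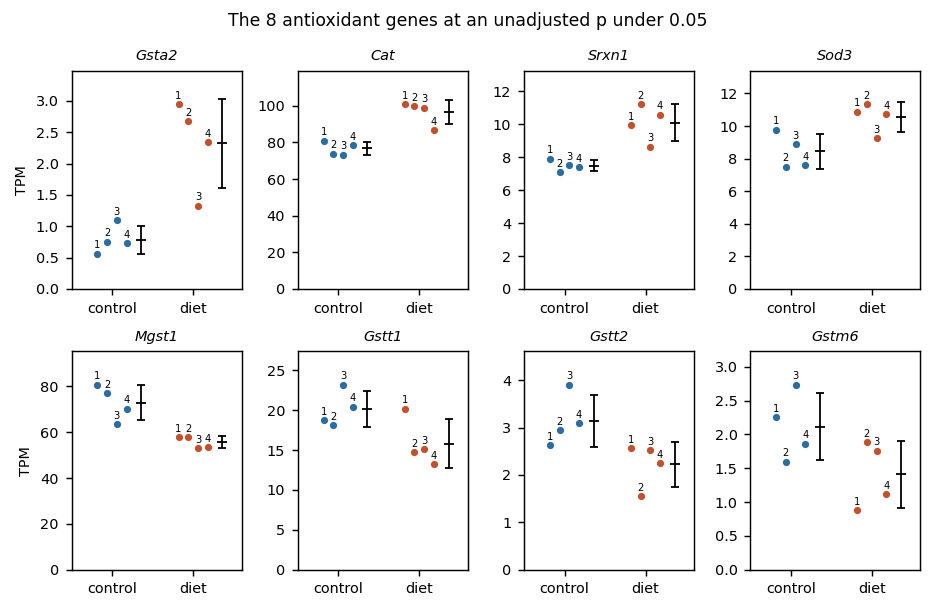
TPM of the 8 genes with an unadjusted p under 0.05, each point a library labelled by its replicate number, with the group mean and SD (n = 4) as a bar to the right. Gsta2, Cat and Srxn1 have all 4 western diet libraries above the controls, and Mgst1 and Gstt2 have them all below.

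Among the superoxide dismutases, the extracellular enzyme differed most, and none of the family passed an adjusted p of 0.05. Sod1, the cytosolic copper and zinc enzyme, made up 85.1% to 89.9% of the family's TPM. Sod1 was at 367, 362, 348 and 364 TPM in control replicates 1 to 4 and at 479, 402, 356 and 316 TPM in western diet replicates 1 to 4. Western diet replicates 1 and 2 lay above the controls, replicate 4 below them and replicate 3 among them (log2 fold change 0.092, 95% interval -0.17 to 0.35, limma adjusted p = 0.812). Sod3, the secreted enzyme (ENSMUSG00000072941, chromosome 5, 52363791 to 52371418), was at 9.78, 7.51, 8.90 and 7.60 TPM in control replicates 1 to 4 and at 10.9, 11.4, 9.26 and 10.7 TPM in western diet replicates 1 to 4. Only western diet replicate 3 fell among the controls, below control replicate 1 (log2 fold change 0.29, SE 0.11, limma unadjusted p = 0.0211, adjusted p = 0.331). Sod3 had an unadjusted p under 0.05 in 13 of 19 alternatives, and not after median-of-ratios scaling (0.0527) or quantile normalization (0.0554), with the term for Y-linked transcripts (0.0991), or without control replicate 2 (0.0592), control replicate 4 (0.0678) or western diet replicate 2 (0.0564; all limma unadjusted p). Sod2, the manganese enzyme of mitochondria, was at 45.6 ± 2.77 against 47.5 ± 2.70 TPM (log2 fold change -0.055, 95% interval -0.23 to 0.12, limma adjusted p = 0.846). Here and below, a pair of levels is the mean ± SD of the 4 western diet libraries against that of the 4 controls.

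Cat, the catalase of peroxisomes (ENSMUSG00000027187, chromosome 2, 103453849 to 103485160), was higher in every western diet library than in every control. Cat was at 81.0, 73.9, 73.3 and 78.6 TPM in control replicates 1 to 4 and at 101, 99.7, 98.9 and 86.8 TPM in western diet replicates 1 to 4. The group levels were 96.6 ± 6.58 against 76.7 ± 3.73 TPM, a ratio of 1.26 (log2 fold change 0.33, SE 0.081, limma unadjusted p = 0.00196, adjusted p = 0.137). Western diet replicate 4, the one diet library with Y-linked transcripts, lay lowest of its group, and with a model term for those transcripts the log2 fold change was 0.18 (SE 0.11, limma unadjusted p = 0.131). Leaving out the libraries with atrial transcripts gave a limma unadjusted p of 0.0570.

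The glutathione peroxidases did not pass in any member. Gpx4 was at 676, 637, 564 and 573 TPM in control replicates 1 to 4 and at 784, 756, 502 and 702 TPM in western diet replicates 1 to 4. The groups overlapped, with western diet replicate 3 lowest of all 8 and replicate 1 highest (log2 fold change 0.15, 95% interval -0.16 to 0.45, limma adjusted p = 0.729). Gpx3, the enzyme secreted into plasma, was the member with the widest spread in controls, and is singled out here after its values were seen: it was at 132, 85.1, 289 and 96.2 TPM in control replicates 1 to 4 and at 186, 207, 129 and 146 TPM in western diet replicates 1 to 4. Control replicate 3 held the most, and in that library the atrial markers summed to 6271 TPM (76.7 to 1573 TPM elsewhere) and the 6 adipocyte markers, all above 0, to 32.9 TPM (0.155 to 3.04 TPM elsewhere). Their part in the level of Gpx3 was not tested. The log2 fold change of Gpx3 was 0.30 (SE 0.32, limma adjusted p = 0.768) with all libraries. Leaving out the 3 libraries with atrial transcripts gave 0.74 (SE 0.18, limma unadjusted p = 0.00193, adjusted p = 0.286) and left 2 controls and 3 western diet libraries.

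Gpx1, the cytosolic peroxidase, was at 66.7 ± 11.5 against 61.7 ± 7.49 TPM, highest in western diet replicate 1 (82.7 TPM). The cysteine enzymes of the endoplasmic reticulum, Gpx8 and Gpx7, were at 20.4 ± 0.913 against 19.8 ± 0.958 TPM and 4.79 ± 1.21 against 4.50 ± 0.777 TPM. Gpx2 was listed at 0 in all 8 libraries, and Gpx5 and Gpx6 at 0 or at most 0.130 TPM.

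Of the peroxiredoxins, the thiol peroxidases, none had an unadjusted p under 0.05, while the enzyme that repairs them did. Srxn1, sulfiredoxin, which reduces overoxidised peroxiredoxins and is a known NRF2 target (ENSMUSG00000032802, chromosome 2, 152105516 to 152111376), was at 7.90, 7.09, 7.50 and 7.41 TPM in control replicates 1 to 4 and at 9.96, 11.2, 8.65 and 10.6 TPM in western diet replicates 1 to 4. All 4 western diet libraries were above all 4 controls, the lowest by less than 1 TPM (log2 fold change 0.38, SE 0.10, limma unadjusted p = 0.00269, adjusted p = 0.158). The group levels of Srxn1 were 10.1 ± 1.10 against 7.48 ± 0.333 TPM. Prdx2, a cytosolic peroxiredoxin also abundant in red cells, was at 377, 387, 367 and 381 TPM in control replicates 1 to 4 and at 401, 358, 303 and 311 TPM in western diet replicates 1 to 4. Western diet replicates 2, 3 and 4 lay below the controls and replicate 1, the library with the most red cell transcripts, above them (log2 fold change -0.15, 95% interval -0.36 to 0.068, limma adjusted p = 0.605). The part of red cell transcripts in that level was not tested. Without western diet replicate 1 Prdx2 had log2 fold change -0.23, SE 0.082, limma unadjusted p = 0.0195, adjusted p = 0.361.

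Prdx1, another cytosolic enzyme, was at 234 ± 23.0 against 231 ± 10.6 TPM, and Prdx5, found in several compartments, at 247 ± 24.0 against 262 ± 19.8 TPM. Mitochondrial Prdx3 was at 183 ± 8.85 against 182 ± 7.41 TPM (log2 fold change 0.0076, 95% interval -0.16 to 0.17, limma adjusted p = 0.981). Prdx6, which also acts on phospholipids, was at 182 ± 9.12 against 171 ± 6.82 TPM. Prdx4, the enzyme of the endoplasmic reticulum, encoded on the X chromosome, was at 16.7 ± 1.99 against 18.7 ± 1.06 TPM (log2 fold change -0.16, 95% interval -0.38 to 0.059, limma adjusted p = 0.574). Prdx6b was at most 0.0136 TPM.

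The most abundant transcript of the thioredoxin system was that of mitochondrial thioredoxin. Txn2, mitochondrial thioredoxin, took 68.2% to 71.9% of the TPM of thioredoxins and reductases. Txn2 was at 192, 175, 172 and 179 TPM in control replicates 1 to 4 and at 206, 204, 168 and 177 TPM in western diet replicates 1 to 4. The groups overlapped, with western diet replicates 1 and 2 highest of the 8 (log2 fold change 0.066, 95% interval -0.13 to 0.26, limma adjusted p = 0.826). Cytosolic Txn1 was at 48.2 ± 3.67 against 47.1 ± 1.28 TPM. The 3 selenium-dependent reductases were far lower: cytosolic Txnrd1 at 14.1 ± 1.41 against 12.1 ± 0.865 TPM (log2 fold change 0.19, SE 0.098, limma unadjusted p = 0.0760, adjusted p = 0.484), mitochondrial Txnrd2 at 12.5 ± 2.09 against 11.4 ± 0.382 TPM and Txnrd3, best known from testis, at 6.94 ± 0.358 against 6.52 ± 0.431 TPM. All 5 had the higher mean log2 value with western diet, as did 66.4% of all genes, and none passed. That direction depended on the scaling: the log2 fold changes of Txn1 and Txn2 were -0.047 and -0.013 after median-of-ratios scaling, and those of Txn1 and Txnrd3 -0.028 and -0.0069 after quantile normalization.

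Glutaredoxins, which use glutathione to reduce mixed disulfides, had no member with an unadjusted p under 0.05. Glrx3, an iron-sulfur protein partner, was at 71.0, 68.3, 68.4 and 72.7 TPM in control replicates 1 to 4 and at 84.2, 76.1, 65.8 and 64.2 TPM in western diet replicates 1 to 4. The groups overlapped and western diet replicate 1 was highest (log2 fold change 0.042, 95% interval -0.17 to 0.25, limma adjusted p = 0.910). Mitochondrial Glrx2 was at 29.8 ± 0.706 against 29.8 ± 0.978 TPM, cytosolic Glrx at 21.2 ± 2.00 against 21.9 ± 1.54 TPM and Glrx5, needed for iron-sulfur cluster assembly, at 10.9 ± 1.17 against 10.2 ± 0.670 TPM.

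The 4 genes of glutathione synthesis and recycling stood between 2.22 and 12.4 TPM in the 8 libraries, and none had an unadjusted p under 0.05. Gclm, the modifier subunit of the rate-limiting ligase, was at 12.4, 9.85, 12.3 and 10.1 TPM in control replicates 1 to 4 and at 12.3, 12.1, 10.2 and 10.4 TPM in western diet replicates 1 to 4. The western diet range lay inside that of the controls (log2 fold change 0.014, 95% interval -0.23 to 0.26, limma adjusted p = 0.976). Gclc, its catalytic subunit, was at 3.23 ± 0.407 against 2.79 ± 0.471 TPM, Gss, glutathione synthetase, at 8.46 ± 0.528 against 8.27 ± 0.225 TPM and Gsr, glutathione reductase, at 8.08 ± 0.674 against 7.08 ± 1.24 TPM. Control replicate 2 had the lowest Gsr, 5.27 TPM, and the other 7 libraries lay at 7.38 to 8.96 TPM.

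The transferases that are not microsomal, Gstk1 among them, were 22 genes, 18 of them tested. Together the 22 held 744 to 775 TPM in controls and 674 to 899.6 TPM with western diet. Among the tested genes 1 was higher (5.56%, all genes 9.20%) and 3 lower (16.7%, all genes 2.51%) at an unadjusted p under 0.05. Gstm1, a mu-class enzyme and the most abundant, was at 158, 159, 171 and 175 TPM in control replicates 1 to 4 and at 220.02, 187, 152 and 151 TPM in western diet replicates 1 to 4. Western diet replicates 1 and 2 lay above the controls and replicates 3 and 4 below them (log2 fold change 0.081, 95% interval -0.18 to 0.35, limma adjusted p = 0.847).

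Gsta2, an alpha-class enzyme (ENSMUSG00000057933, chromosome 9, 78331018 to 78355788), was the gene with the smallest p of all 52 members. Gsta2 was at 0.565, 0.755, 1.09 and 0.732 TPM in control replicates 1 to 4 and at 2.95, 2.67, 1.33 and 2.34 TPM in western diet replicates 1 to 4. All western diet libraries were above all controls, with replicate 3 closest (log2 fold change 0.88, SE 0.17, limma unadjusted p = 0.000261, adjusted p = 0.0630). The group levels of Gsta2 were 2.32 ± 0.709 against 0.786 ± 0.222 TPM. It was under 1 TPM in 3 of the 4 controls. Gsta2 passed an adjusted p of 0.05 with a robust variance prior (limma adjusted p = 0.0398), after mitochondria-free scaling (adjusted p = 0.0473) and without western diet replicate 3 (adjusted p = 0.0151); over all 18 alternatives that tested it, adjusted p ran from 0.0151 to 0.325.

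The neighbouring Gsta1 shares 97.5% of its coding bases with Gsta2, so the split of reads between them is uncertain. Gsta1 alone was at 7.78, 6.56, 4.77 and 5.01 TPM in control replicates 1 to 4 and at 5.03, 6.95, 4.97 and 8.58 TPM in western diet replicates 1 to 4, with overlapping groups. Summed over the pair the level was at 8.34, 7.31, 5.87 and 5.74 TPM in control replicates 1 to 4 and at 7.98, 9.63, 6.30 and 10.9 TPM in western diet replicates 1 to 4, and the groups overlapped (8.71 ± 2.01 against 6.82 ± 1.24 TPM). Kap, a kidney marker, was at 0.685, 0.0717, 0 and 0.239 TPM in control replicates 1 to 4 and at 9.58, 7.15, 13.4 and 72.1 TPM in western diet replicates 1 to 4. Of the other kidney markers, Miox was at 1.01, 1.00, 0.601 and 2.73 TPM in western diet replicates 1 to 4. Slc34a1 was at 0.259, 0.465, 0.281 and 2.86 TPM there, and both were listed at 0 in the controls. Slc12a1 was at most 0.182 TPM, Umod was at 0 in western diet replicates 1 and 3, and Cdh16 was at or near 0 throughout. Western diet replicate 4 was the highest library for Kap, for Gsta1 and for the sum of the pair, while replicate 1 was highest for Gsta2 alone. The part of kidney transcripts in these levels was not tested.

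The theta-class genes lie side by side on chromosome 10, from 75774115 (Gstt3) to 75837424 (Gstt2), and the 3 tested ones had lower means with western diet. Gstt1 was at 18.8, 18.2, 23.2 and 20.5 TPM in control replicates 1 to 4 and at 20.2, 14.8, 15.1 and 13.2 TPM in western diet replicates 1 to 4. Western diet replicates 2, 3 and 4 were below every control and replicate 1 among them (log2 fold change -0.34, SE 0.13, limma unadjusted p = 0.0236, adjusted p = 0.347). Gstt2 was at 2.63, 2.95, 3.90 and 3.09 TPM in control replicates 1 to 4 and at 2.56, 1.55, 2.52 and 2.25 TPM in western diet replicates 1 to 4. The groups did not overlap, western diet replicate 1 lying just under control replicate 1 (log2 fold change -0.37, SE 0.14, limma unadjusted p = 0.0233, adjusted p = 0.346). Gstt3 was at 2.71 ± 0.377 against 3.12 ± 0.252 TPM (log2 fold change -0.15, 95% interval -0.39 to 0.084, limma adjusted p = 0.627) and Gstt4 at no more than 0.0534 TPM. Without the libraries with atrial transcripts the log2 fold change was -0.26 for Gstt1 (limma unadjusted p = 0.197) and -0.22 for Gstt2 (unadjusted p = 0.191); control replicate 3, an atrial library, held the highest value of each. Leaving out control replicate 3 alone gave limma unadjusted p values of 0.0726 and 0.0696, and leaving out western diet replicate 2 0.0548 and 0.0740. For Gstt1 the value was 0.0675 without western diet replicate 4, and for Gstt2 0.164 with the term for Y-linked transcripts.

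The 7 mu-class genes lie in a cluster on chromosome 3 from 107895821 (Gstm5) to 108044894 (Gstm4). Their coding sequences share up to 85.3% of bases (Gstm2 and Gstm7), and that of Gstm6 at most 80.9% (with Gstm2). How reads were split between these copies was not tested. Gstm6, a minor member, was at 2.25, 1.60, 2.73 and 1.86 TPM in control replicates 1 to 4 and at 0.879, 1.89, 1.76 and 1.11 TPM in western diet replicates 1 to 4. The groups overlapped, with western diet replicates 1 and 4 lowest (log2 fold change -0.38, SE 0.16, limma unadjusted p = 0.0422, adjusted p = 0.409). Gstm6 had an unadjusted p under 0.05 in 10 of 18 alternatives. The limma unadjusted p was 0.0653 with the term for Y-linked transcripts, 0.0546 after mitochondria-free scaling, 0.0666 with no filter and 0.156 without the libraries with atrial transcripts. It was 0.0868 and 0.119 on leaving out control replicate 1 or 3, and 0.129 and 0.103 on leaving out western diet replicate 1 or 4. Gstm2 was at 117 ± 23.6 against 113 ± 3.79 TPM, Gstm5 at 41.5 ± 6.95 against 45.5 ± 1.68 TPM, Gstm7 at 37.0 ± 6.02 against 38.3 ± 2.77 TPM and Gstm4 at 8.33 ± 0.440 against 7.39 ± 0.584 TPM, while Gstm3 was at most 0.158 TPM.

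Of the remaining classes, omega-class Gsto1 was at 99.0 ± 15.5 against 83.7 ± 5.81 TPM (log2 fold change 0.23, 95% interval -0.029 to 0.48, limma adjusted p = 0.487) and Gstk1, the kappa-class enzyme of mitochondria and peroxisomes, at 74.5 ± 12.04 against 86.3 ± 2.94 TPM (log2 fold change -0.22, 95% interval -0.46 to 0.015, limma adjusted p = 0.459). Gsta4, which conjugates the lipid peroxidation product hydroxynonenal, was at 68.7 ± 5.14 against 68.6 ± 2.22 TPM (log2 fold change 0.00061, 95% interval -0.18 to 0.18, limma adjusted p = 0.999). Gstp1 was at 76.3 ± 15.7 against 77.3 ± 1.02 TPM and its 98.1% identical neighbour Gstp2 at 5.95 ± 1.47 against 4.77 ± 1.23 TPM. The controls held Gstp1 within 76.6 to 78.8 TPM, whereas the western diet libraries spread over 59.5 to 96.3 TPM. Gstz1, an enzyme of tyrosine breakdown, was at 21.1 ± 2.35 against 19.95 ± 1.44 TPM and Gsta3 at 7.65 ± 1.26 against 7.04 ± 1.19 TPM. Gsto2 was under 1 TPM in every library, and Gstp3 was at most 0.0714 TPM.

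Among the microsomal enzymes, Mgst1 was lower in every western diet library than in every control. Mgst1, a membrane-bound transferase and peroxidase of the endoplasmic reticulum and outer mitochondrial membrane (ENSMUSG00000008540, chromosome 6, 138140316 to 138156755), was at 80.7, 76.9, 63.4 and 70.2 TPM in control replicates 1 to 4 and at 57.8, 57.8, 53.0 and 53.4 TPM in western diet replicates 1 to 4. The western diet libraries lay within 53.0 to 57.8 TPM, below the lowest control (log2 fold change -0.38, SE 0.092, limma unadjusted p = 0.00160, adjusted p = 0.126). The group levels of Mgst1 were 55.5 ± 2.65 against 72.8 ± 7.62 TPM. Its unadjusted p was under 0.05 in all 19 alternatives run, and its log2 fold change ran from -0.46 to -0.33, with adjusted p from 0.0905 to 0.628. The same held for Srxn1, with an unadjusted p under 0.05 in all 19. Mgst3, the most abundant of the 3, was at 197, 201, 177 and 192 TPM in control replicates 1 to 4 and at 202, 202, 160.3 and 161 TPM in western diet replicates 1 to 4. The groups overlapped, with western diet replicates 3 and 4 lowest (log2 fold change -0.091, 95% interval -0.31 to 0.13, limma adjusted p = 0.780). Mgst2 was under 1 TPM throughout.

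**Figure D3:**
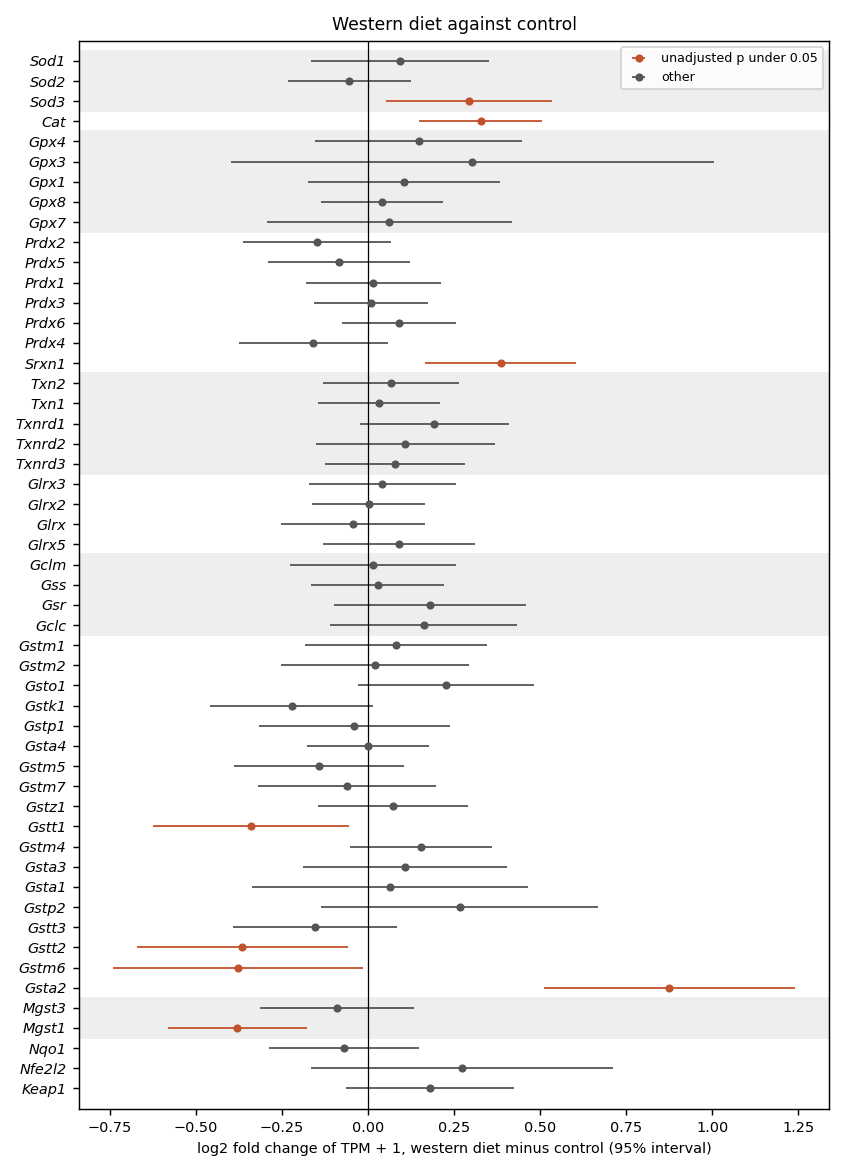
Log2 fold change of TPM + 1 (western diet minus control) with its 95% interval for the 52 tested genes, grouped by role with alternate shading, red where the unadjusted p was under 0.05. Gsta2 lies farthest from zero at 0.88, and the intervals of 44 genes include zero.

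Nfe2l2 and Keap1 did not pass, and both were highest in the same pair of libraries. Nfe2l2, the gene of NRF2, was at 19.2, 20.3, 25.2 and 25.3 TPM in control replicates 1 to 4 and at 37.5, 34.8, 21.8 and 19.1 TPM in western diet replicates 1 to 4. Western diet replicates 1 and 2 were above all controls, while replicates 3 and 4 lay within or below the control range (log2 fold change 0.27, 95% interval -0.17 to 0.71, limma adjusted p = 0.647); it is described here after its values were seen. Keap1, the adaptor that directs NRF2 to degradation, was at 17.0 ± 2.54 against 14.8 ± 0.811 TPM (log2 fold change 0.18, 95% interval -0.065 to 0.42, limma adjusted p = 0.571), highest in western diet replicates 1 and 2 as well. Nqo1, a quinone reductase and classic NRF2 target, was at 38.2, 39.1, 36.8 and 42.3 TPM in control replicates 1 to 4 and at 35.9, 44.4, 33.9 and 35.1 TPM in western diet replicates 1 to 4. Nqo1 did not follow that order, since western diet replicate 2 was highest and replicates 1, 3 and 4 lay below every control (log2 fold change -0.071, 95% interval -0.29 to 0.15, limma adjusted p = 0.835). Without western diet replicate 4 Nfe2l2 had log2 fold change 0.44, SE 0.18, limma unadjusted p = 0.0374, adjusted p = 0.277, and with the term for Y-linked transcripts its log2 fold change was -0.21 (SE 0.26).

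Across the 52 genes the western diet libraries differed among themselves more than the controls did. Western diet replicate 1 was the highest of the 8 libraries in 27 of 52 genes (51.9%, against 24.5% of all genes tested). Western diet replicate 3 was the lowest in 11 (21.2%, against 11.1%). Western diet replicate 4 was the lowest in 13 (25.0%, against 25.7%), near the share over all genes. Control replicate 2 was also the lowest in 13 (25.0%, against 36.6%). The median coefficient of variation over the 52 was 6.60% in control and 12.9% with western diet, compared with 11.9% and 14.2% over all genes tested. It was larger with western diet in 40 of 52 genes (76.9%, all genes 60.8%). These shares are descriptions with no test. Western diet replicate 1 also held the most red cell transcripts, given above, and the highest sum of macrophage markers; their part in the pattern was not tested.

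**Figure D4:**
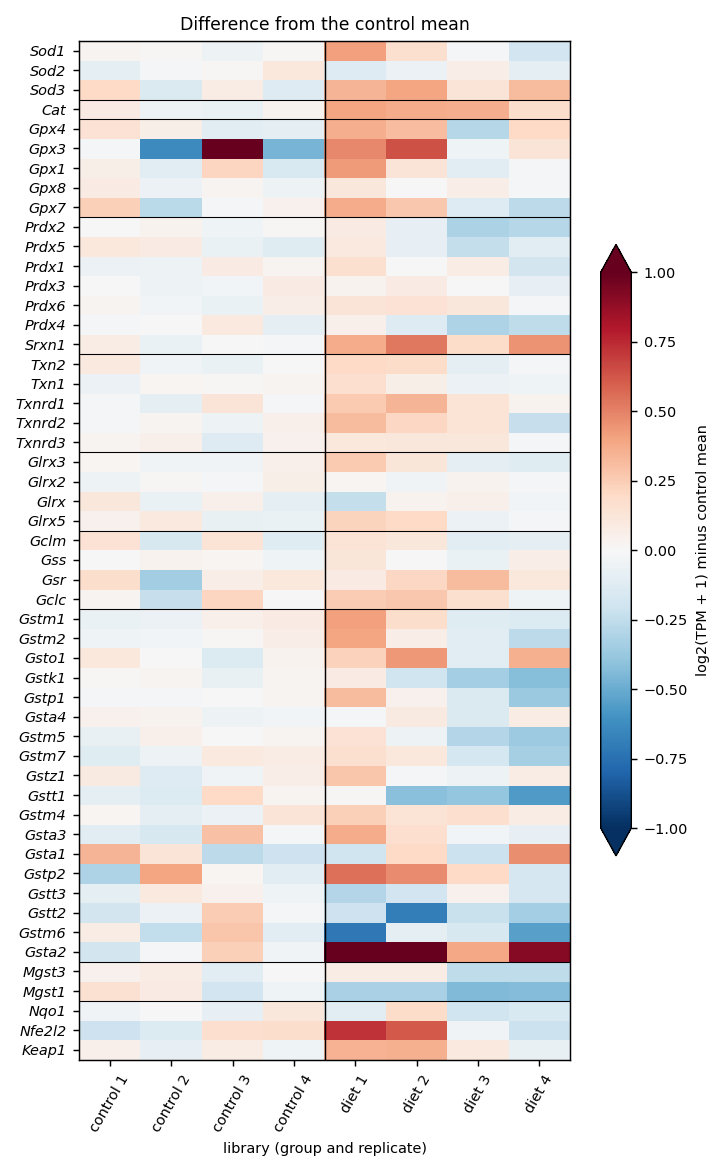
Difference of log2(TPM + 1) from the control mean for the 52 tested genes (rows, grouped by role) in each of the 8 libraries (columns), red for higher and blue for lower, with values beyond 1 shown at the end of the scale. The columns of western diet replicates 1 and 2 are mostly red and those of replicates 3 and 4 mixed or blue, while Gpx3 varies most among the controls.

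Genes that feed or surround these enzymes were taken as 7 lists with 96 genes, of which 87 were tested. None passed an adjusted p of 0.05, and the lowest belonged to Me1 (limma adjusted p = 0.0823). At an unadjusted p under 0.05, 13 were higher (14.9%, background 9.20%) and 2 lower (2.30%, background 2.51%). The split was 9 and 8 after median-of-ratios scaling, 9 and 9 after quantile normalization, and 0 and 4 with the term for Y-linked transcripts. The share of all genes at that threshold, 11.7% before, was 14.8%, 15.3% and 8.32% in these fits. In total the count went from 15 to 9 without control replicate 1, 8 without control replicate 2, 9 without western diet replicate 1 and 9 without western diet replicate 2. The shares of all genes in those fits were 8.2%, 7.89%, 10.3% and 7.79%. The median log2 fold change over the 87 was 0.048, against 0.061 over all genes.

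NADPH supply had 2 of 12 genes higher at that threshold (16.7%, all genes 9.20%) and none lower (all genes 2.51%). Me1, cytosolic malic enzyme, which makes NADPH, was at 50.1, 45.9, 56.2 and 54.0 TPM in control replicates 1 to 4 and at 70.6, 76.7, 70.2 and 63.1 TPM in western diet replicates 1 to 4. The groups did not overlap (log2 fold change 0.44, SE 0.093, limma unadjusted p = 0.000625, adjusted p = 0.0823), and Me1 passed an adjusted p of 0.05 after median-of-ratios scaling (adjusted p = 0.0289), after quantile normalization (adjusted p = 0.0372) and without western diet replicate 4 (adjusted p = 0.0452). Nnt, the mitochondrial transhydrogenase that regenerates NADPH, was at 37.2, 24.8, 34.1 and 42.8 TPM in control replicates 1 to 4 and at 62.9, 91.5, 59.2 and 39.7 TPM in western diet replicates 1 to 4. Western diet replicate 4 lay within the control range and the other 3 above it (log2 fold change 0.81, SE 0.23, limma unadjusted p = 0.00406, adjusted p = 0.183). The C57BL/6J substrain is known for a deletion in Nnt; the labels give the strain as C57/BL6 with no substrain, and values per gene do not show which exons were read. With the term for Y-linked transcripts the log2 fold change of Nnt was 0.21 (SE 0.28, limma unadjusted p = 0.466). Without western diet replicate 4 Nnt passed (limma adjusted p = 0.0490), but no western diet library with Y-linked transcripts then remains, so that diet and those transcripts cannot be told apart in that fit. The same holds for Me1 without replicate 4, whose log2 fold change was 0.29 (SE 0.13, limma unadjusted p = 0.0538) with the term.

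Regulators and partners of NRF2 had 4 of 10 genes higher (40%, all genes 9.20%) and none lower at an unadjusted p under 0.05, and none higher with the term for Y-linked transcripts. The 4 were Mafk, Maff, Nfe2l1 and Bach1, a repressor of NRF2 targets, which was at 5.17 ± 0.896 against 3.95 ± 0.640 TPM. Mafk and Maff encode small MAF proteins, which pair with NRF2 on DNA. Mafk was at 10.5, 9.11, 11.99 and 12.7 TPM in control replicates 1 to 4 and at 20.1, 20.4, 10.96 and 13.9 TPM in western diet replicates 1 to 4 (log2 fold change 0.49, SE 0.18, limma unadjusted p = 0.0219, adjusted p = 0.334). Maff was at 1.83, 1.88, 2.52 and 1.94 TPM in control replicates 1 to 4 and at 8.87, 5.95, 2.48 and 2.49 TPM in western diet replicates 1 to 4 (log2 fold change 0.83, SE 0.30, limma unadjusted p = 0.0171, adjusted p = 0.303). Nfe2l1, a relative of NRF2, was at 147, 135, 157 and 159 TPM in control replicates 1 to 4 and at 197, 206, 157 and 175 TPM in western diet replicates 1 to 4 (log2 fold change 0.29, SE 0.10, limma unadjusted p = 0.0149, adjusted p = 0.290). In all 3 genes western diet replicates 1 and 2 were the highest libraries, and replicate 3 overlapped the controls. With the term for Y-linked transcripts the log2 fold change was 0.31 (SE 0.29, limma unadjusted p = 0.317) for Mafk, 0.20 (SE 0.42, limma unadjusted p = 0.640) for Maff and 0.23 (SE 0.16, limma unadjusted p = 0.183) for Nfe2l1. The 11 tested other NRF2 targets held 2 higher genes (18.2%, all genes 9.20%). Hmox1, heme oxygenase, was at 3.40, 3.29, 5.01 and 3.79 TPM in control replicates 1 to 4 and at 7.50, 5.57, 4.37 and 4.21 TPM in western diet replicates 1 to 4 (log2 fold change 0.38, SE 0.17, limma unadjusted p = 0.0461, adjusted p = 0.419). Ftl1, the ferritin light chain, was at 274, 259, 291 and 263 TPM in control replicates 1 to 4 and at 511, 399, 268 and 305 TPM in western diet replicates 1 to 4 (log2 fold change 0.40, SE 0.17, limma unadjusted p = 0.0360, adjusted p = 0.392). For Hmox1 and Ftl1 too the highest values were those of western diet replicates 1 and 2. A limma unadjusted p under 0.05 was kept in 9 of 18 alternatives for Hmox1 and 10 of 19 for Ftl1.

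**Figure D5:**
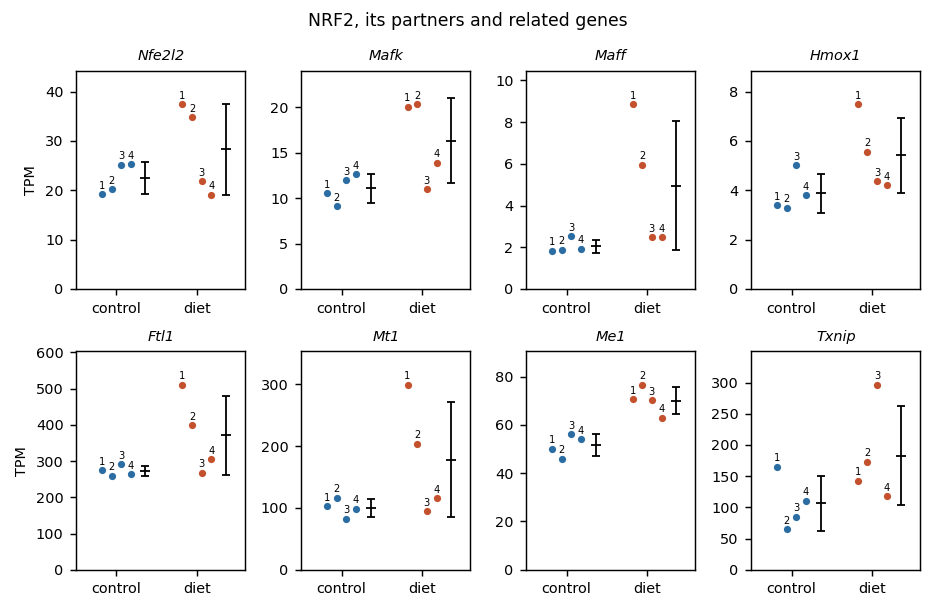
TPM of Nfe2l2, its partners Mafk and Maff, and 5 related genes, each point a library labelled by its replicate number, with the group mean and SD (n = 4) as a bar to the right. Western diet replicates 1 and 2 are the highest points for Nfe2l2, Mafk, Maff, Hmox1, Ftl1 and Mt1, and Me1 is the panel whose groups do not overlap.

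Metallothioneins, which bind zinc and copper, supplied the 2 higher genes of the 10 tested in the metal and aldehyde list (20%, all genes 9.20%). Mt1 was at 103, 117, 82.6 and 98.6 TPM in control replicates 1 to 4 and at 299.6, 204, 94.4 and 116 TPM in western diet replicates 1 to 4 (log2 fold change 0.69, SE 0.30, limma unadjusted p = 0.0409, adjusted p = 0.406). Mt2 was at 18.1, 15.9, 11.3 and 13.6 TPM in control replicates 1 to 4 and at 76.5, 42.7, 13.7 and 15.997 TPM in western diet replicates 1 to 4 (log2 fold change 0.97, SE 0.44, limma unadjusted p = 0.0487, adjusted p = 0.424). Western diet replicates 1 and 2 were above every control for both genes, and replicates 3 and 4 lay among the controls. With 1 library left out the log2 fold change ran from 0.39 to 0.94 for Mt1 and from 0.52 to 1.32 for Mt2, lowest for both without western diet replicate 1. An unadjusted p under 0.05 was kept in 8 of 19 alternatives for Mt1 and 6 of 19 alternatives for Mt2. Mt3, named after its values were seen, was at 1.08 ± 0.447 against 1.85 ± 1.10 TPM (log2 fold change -0.41, 95% interval -0.93 to 0.11, limma adjusted p = 0.538).

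Glutathione precursor and turnover genes held 1 higher (9.09%, all genes 9.20%) and 1 lower gene (9.09%, all genes 2.51%) among 11 tested. Chac1, which cleaves glutathione, was at 1.26, 1.07, 0.7998 and 1.24 TPM in control replicates 1 to 4 and at 3.09, 2.56, 1.44 and 1.96 TPM in western diet replicates 1 to 4 (log2 fold change 0.62, SE 0.16, limma unadjusted p = 0.00245, adjusted p = 0.148). Its groups did not overlap, and it was near the filter of 1 TPM in controls. Cth, which makes cysteine, was at 1.35, 1.42, 1.27 and 1.26 TPM in control replicates 1 to 4 and at 0.600, 0.489, 0.515 and 1.21 TPM in western diet replicates 1 to 4 (log2 fold change -0.47, SE 0.13, limma unadjusted p = 0.00488, adjusted p = 0.191). The groups did not overlap, but western diet replicate 4 lay just under the controls, and with the term for Y-linked transcripts the log2 fold change was -0.075 (SE 0.14, limma unadjusted p = 0.615). Without western diet replicate 4 Cth had a limma adjusted p of 0.0256; in that fit no western diet library with Y-linked transcripts remains, and Cth reaches 1 TPM only in the controls, the group in which it is high. Slc7a11, the cystine importer, was under the filter at 0.0129 to 0.204 TPM.

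Of the thioredoxin partners and inhibitors, 2 of 15 were higher (13.3%, all genes 9.20%). Txnip, the thioredoxin-binding protein that responds to glucose, was at 165, 64.5, 85.0 and 111 TPM in control replicates 1 to 4 and at 143, 173, 296 and 118 TPM in western diet replicates 1 to 4. Western diet replicate 3 was highest and control replicate 1 lay above 2 western diet libraries (log2 fold change 0.77, SE 0.31, limma unadjusted p = 0.0285, adjusted p = 0.363). Nxn, nucleoredoxin, was at 4.07, 3.96, 4.79 and 3.56 TPM in control replicates 1 to 4 and at 7.86, 5.16, 4.82 and 4.55 TPM in western diet replicates 1 to 4 (log2 fold change 0.35, SE 0.15, limma unadjusted p = 0.0406, adjusted p = 0.406), highest in western diet replicate 1. A limma unadjusted p under 0.05 was kept in 11 of 19 alternatives for Txnip and 8 of 18 for Nxn. Among 18 tested selenoprotein and selenium supply genes 1 was lower (5.56%, all genes 2.51%). It was Selenos of the endoplasmic reticulum, at 23.2, 21.2, 25.1 and 20.9 TPM in control replicates 1 to 4 and at 19.7, 20.3, 15.4 and 18.9 TPM in western diet replicates 1 to 4 (log2 fold change -0.27, SE 0.11, limma unadjusted p = 0.0257, adjusted p = 0.352). Its groups did not overlap, and 17 of the 18 lay within 0.25 of zero on the log2 scale.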

How the data were processed

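Heart RNA was sequenced in 8 libraries after polyadenylated RNA selection with a stranded kit, per the labels' protocols. The file deposited by the authors gives TPM per Ensembl gene; kallisto, DESeq2 and GRCm38 are named in the submitters' processing notes, without versions or roles, and the annotation is not given in the sources used here. The columns summed to 941318 to 953448 TPM. Being relative, TPM values fall for all genes when a few transcripts take a larger share.

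Identifiers were matched to GENCODE M21 (GRCm38), which named 29811 of 30153. The 10969 genes reaching 1 TPM in 4 or more libraries were tested in limma 3.58.1 (R 4.3.3) as log2(TPM + 1), with diet group alone in the model, a trended empirical Bayes prior, two-sided p-values, Benjamini-Hochberg adjustment over all these genes and a threshold of 0.05, and the fit was tested on simulated data. Fold changes on this scale understate those of low genes. TPM is not a count, so no count test was used. The members, lists, alternatives and the rule for naming genes were chosen with earlier results of these data known. The rule gave every library's value for members with an unadjusted p under 0.05 or groups that do not overlap and for the most abundant member of each role, and for up to 3 genes of each related list with an unadjusted p under 0.05, besides Txnip, Hmox1 and Slc7a11; genes outside it are marked or stand beside one of these. Alternatives were pseudocounts of 0.1 and 0.5, other filters, scalings and variance priors, a model term for whether Eif2s3y, on the Y chromosome, reached 1 TPM, leaving out libraries with atrial transcripts and leaving out each library. With the Y-linked term the diet difference is that of western diet replicate 4 from the controls and rests on 1 library. Replicates are numbered in accession order. Sequences were read and aligned with Biopython 1.88, and figures drawn with matplotlib 3.10.9 in Python 3.11.15.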

Additional observations from a re-analysis of the deposited data

Results flagged for a closer look

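In 3 of the 64 groups of 4 libraries checked (32 named genes in 2 groups), 1 library lay far from the other 3 by Dixon's ratio of gap to range, above its 95% critical value; chance gives about 1 in 20. Western diet replicate 4 had 86.8 TPM of Cat, and its group otherwise 98.9 to 101 TPM. The same library had 1.21 TPM of Cth, where the rest of the group had 0.489 to 0.601 TPM. Maff reached 2.52 TPM in control replicate 3, with 1.83 to 1.94 TPM for the remaining controls.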

How the results depend on the processing

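The count of all genes past an adjusted p of 0.05 was 33, and it was 54 with the term for Y-linked transcripts, 15 with a mean of at least 5 TPM, 5 with no filter, 61 after quantile normalization, 5 without the libraries with atrial transcripts, and 8 to 95 when each library was left out in turn. Leaving out control replicate 1 gave 15, control replicate 2 9, control replicate 3 13, control replicate 4 8, western diet replicate 3 54 and western diet replicate 4 95. Its share of higher genes, 75.8%, was 63.3% after median-of-ratios scaling and 65.6% after quantile normalization, 60% with no filter and 100% without the libraries with atrial transcripts, and 55.6% to 83.3% with 1 library left out. The 8 antioxidant genes at an unadjusted p under 0.05 were 5 with a mean of at least 5 TPM (46 genes tested), 5 without the libraries with atrial transcripts and 5 to 11 with 1 library left out. The 15 related genes were 4 with the Y-linked term, 4 without the libraries with atrial transcripts and 8 to 20 with 1 library left out. The share of all genes at an unadjusted p under 0.05, 11.7% before, moved as well. It was 11.6% with a mean of at least 5 TPM, 8.32% with the Y-linked term and 5.6% without the libraries with atrial transcripts. With 1 library left out it ran from 7.79% to 16.4%. The 31 named genes that were tested gave 581 fold changes over the 19 alternatives. None of them passed an adjusted p of 0.05 in the fit described above, so this tally could not count a loss. A smaller fold change or an unadjusted p that rose above 0.05 was counted as kept, as for Cth at -0.075 with the Y-linked term. In this tally 557 kept their sign and their side of the threshold, and 8 passed it (Gsta2, Me1, Nnt and Cth, given above). The other 16 changed sign, all in genes near zero. These were, with the Y-linked term, Gclm (-0.088), Glrx3 (-0.12), Gstm1 (-0.13), Sod1 (-0.19) and Txn2 (-0.017); after median-of-ratios scaling, Gclm (-0.059), Glrx3 (-0.037) and Txn2 (-0.013); after quantile normalization, Gclm (-0.069); and with 1 library left out, Gclm (-0.039 to 0.061), Glrx3 (-0.032 to 0.097), Gstm1 (-0.028 to 0.15) and Sod1 (-0.015 to 0.18). The cause was not tested. No paired analysis was possible because the labels give no replicate numbers. The depth of the libraries is unknown, which limits the genes near 1 TPM most.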

Other observations

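Ggt1, which starts the breakdown of glutathione outside cells and is abundant in kidney, lay under the filter and was not tested; it is named after its values were seen. Ggt1 was at 0.0566, 0.212, 0 and 0.0658 TPM in control replicates 1 to 4 and at 0.443, 0.888, 0.535 and 1.94 TPM in western diet replicates 1 to 4. Every western diet library was above every control, with replicate 4 highest, as it was for Kap (72.1 TPM). Umod, another kidney gene, was at 0, 0.405, 0 and 1.34 TPM in western diet replicates 1 to 4 and listed at 0 in all 4 controls.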
